A study of Mus musculus with 12 samples.

Results

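Transcripts of 10 mouse genes that set the threshold for programmed cell death were followed on 12 Affymetrix arrays. The cells were mouse embryonic fibroblasts (MEFs), which are cells of connective tissue taken into culture from embryos, here of the strain C57BL/6. The genes were the anti-apoptotic family members Bcl2, Bcl2l1 (BCL-XL) and Mcl1, the BH3-only genes Bcl2l11 (BIM), Bbc3 (PUMA), Bid and Pmaip1 (NOXA), the death receptor gene Fas and the kinase genes Pim1 and Pim3. They are 10 of the 18193 genes on the arrays, chosen by name, and every probe set listed with 1 of these genes and no other was taken, which gave 31 of the 45037 probe sets tested. The arrays fell into 6 groups of 2 biological duplicates: Stat5-null MEFs infected with a retrovirus that carries STAT5A (S5) given growth hormone (GH) for 120 minutes, S5 MEFs untreated, Stat5-null MEFs (KO) with and without GH, and wild-type MEFs (WT) with and without GH. KO and S5 MEFs share the loss of the Stat5 genes. The labels name no KO group with an empty vector and no vehicle control, so the infection and the vector cannot be told apart from STAT5A itself, and genotype cannot be told apart from the cell preparation.

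STAT5A and STAT5B are transcription factors that the growth hormone receptor activates through the kinase JAK2, and in blood cells STAT5 is known to raise Bcl2l1 and the Pim genes. BCL2, BCL-XL and MCL1 hold the mitochondrial outer membrane closed by binding BAX and BAK, BH3-only proteins neutralise them or activate BAX and BAK, and FAS signals death from the cell surface through caspase-8, which cleaves BID. PIM1 and PIM3 are serine/threonine kinases that are active as soon as they are made, so that their transcript level largely sets their activity, and one of their known targets is the BH3-only protein BAD.

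The 300 bases around the annotated start of Fas are printed because Fas had the largest rise under GH of the 10 genes, and those of Bid because it rose beside Fas. Capitals mark each match to TTCNNNGAA, the STAT5 binding motif, which reads the same on both strands. The sequences are from RefSeq, build GRCm38.p6, 5′ to 3′ on the strand of the gene. The Fas window is chr19:34290409-34290708 on the plus strand, and the Bid window is chr6:120916775-120917074 on the minus strand.

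Fas: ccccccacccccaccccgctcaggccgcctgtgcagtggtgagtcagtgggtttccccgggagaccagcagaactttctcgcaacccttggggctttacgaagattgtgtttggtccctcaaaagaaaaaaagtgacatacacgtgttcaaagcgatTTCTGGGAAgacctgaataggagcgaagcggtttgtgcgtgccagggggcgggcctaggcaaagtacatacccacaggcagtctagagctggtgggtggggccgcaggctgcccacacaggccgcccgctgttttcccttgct

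Bid: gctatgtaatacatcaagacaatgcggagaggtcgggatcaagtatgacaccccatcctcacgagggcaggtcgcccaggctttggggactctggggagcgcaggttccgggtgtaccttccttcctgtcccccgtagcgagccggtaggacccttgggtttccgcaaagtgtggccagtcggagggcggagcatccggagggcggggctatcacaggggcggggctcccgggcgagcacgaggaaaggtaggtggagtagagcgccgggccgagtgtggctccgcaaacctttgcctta

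The motif in the Fas window, TTCTGGGAA, lay 93 bases before the annotated start, at positions 34290566 to 34290574. Windows of 9 of the 10 genes were kept in this search, 15 in all, and Fas held the 1 match. Pmaip1 was left out, so any match to either motif of this paragraph in its window is not reported here. Of all 32851 such windows 8.3 percent held a match. The NF-kB consensus, searched on both strands, matched 1 window of Bcl2l1 and, with overlapping matches, 1 window of Bbc3, against 4.51 percent of all windows. A match describes letters in this window and is not a binding site.

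Values are the deposited log2 expression values, on which 1 unit is a factor of 2. They piled up at the low end, and a value below 4 was taken as the low mode, where differences between samples are compressed. For a group with both arrays there, 4 was used as its level, and such folds are written "at least". Of the 31 probe sets 21 had a mean of 4 or more, and 7 lay in the low mode on all 12 arrays: 3 of the 5 of Bcl2, 1 of the 4 of Bcl2l1, 1 of the 5 of Bcl2l11, 1 of the 2 of Pim1 and 1 of the 3 of Pim3. Levels of different probe sets cannot be compared, since probes differ in brightness. Differences were tested with limma over all 45037 probe sets and called at an adjusted p below 0.05. SE is that of limma's moderated model and SD that of 2 arrays. Whether the arrays of 2 groups overlap is a description with no test. The share of all probe sets without overlap is not given here.

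Stat5a stood at 2.34 to 2.47 on the S5 and KO arrays, against 11.45 to 12.39 on the WT arrays. It was thus low in S5 MEFs too, although their vector carries STAT5A; what this probe set reads of the vector's transcript was not analysed here. The STAT5 target Socs2 averaged 13.43 ± 0.29 in S5 MEFs with GH and 8.92 ± 0.05 without, 5.34 ± 0.09 in KO MEFs with GH and 4.66 ± 0.03 without, and 11.43 ± 0.02 in WT MEFs with GH and 7.21 ± 0.10 without (SD, n = 2 each). Another STAT5 target, Cish, averaged 9.25 ± 0.11 with GH and 3.50 ± 0.07 without in S5, 4.50 ± 0.26 and 4.87 ± 0.16 in KO, and 8.14 ± 0.11 and 5.01 ± 0.23 in WT MEFs (SD, n = 2 each). The mean over 10 fibroblast markers was 10.87 to 11.38 on S5, 12.66 to 12.75 on KO and 13.05 to 13.19 on WT arrays. Col1a1 lay above 14 on every array, while Dcn was at 7.29 to 7.96 on S5, 10.16 to 11.10 on KO and 10.65 to 11.08 on WT arrays, and Lum was at 3.26 to 4.18 on S5, 2.77 to 3.42 on KO and 6.81 to 7.56 on WT arrays. The mean over 14 macrophage and blood markers was 3.16 to 3.44 on S5, 4.17 to 4.54 on KO and 8.87 to 10.58 on WT arrays, where 11 of 14, 7 or 8 of 14 and 1 to 3 of 14 lay in the low mode. The leukocyte marker Ptprc was in the low mode on every S5 and KO array and at 8.39 to 10.38 on WT arrays. The fibroblast marker Thy1 ranged from 2.20 to 5.09 in S5 MEFs, against 14.14 to 14.39 in KO MEFs and 14.07 to 14.26 in WT MEFs. Gapdh read higher at its 3′ than at its 5′ end, a measure that moves with RNA quality, by 1.44 to 1.62 on S5, 0.94 to 1.11 on KO and 0.89 to 1.22 on WT arrays. For Actb this was 3.04 to 3.15 on S5, 2.71 to 3.07 on KO and 2.55 to 3.13 on WT arrays, and these ranges overlapped. In such bulk samples fewer cells of a type and less RNA per cell cannot be told apart. Duplicates are called biological in the series' design text, which does not say whether they are separate cultures.

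**Figure D1:**
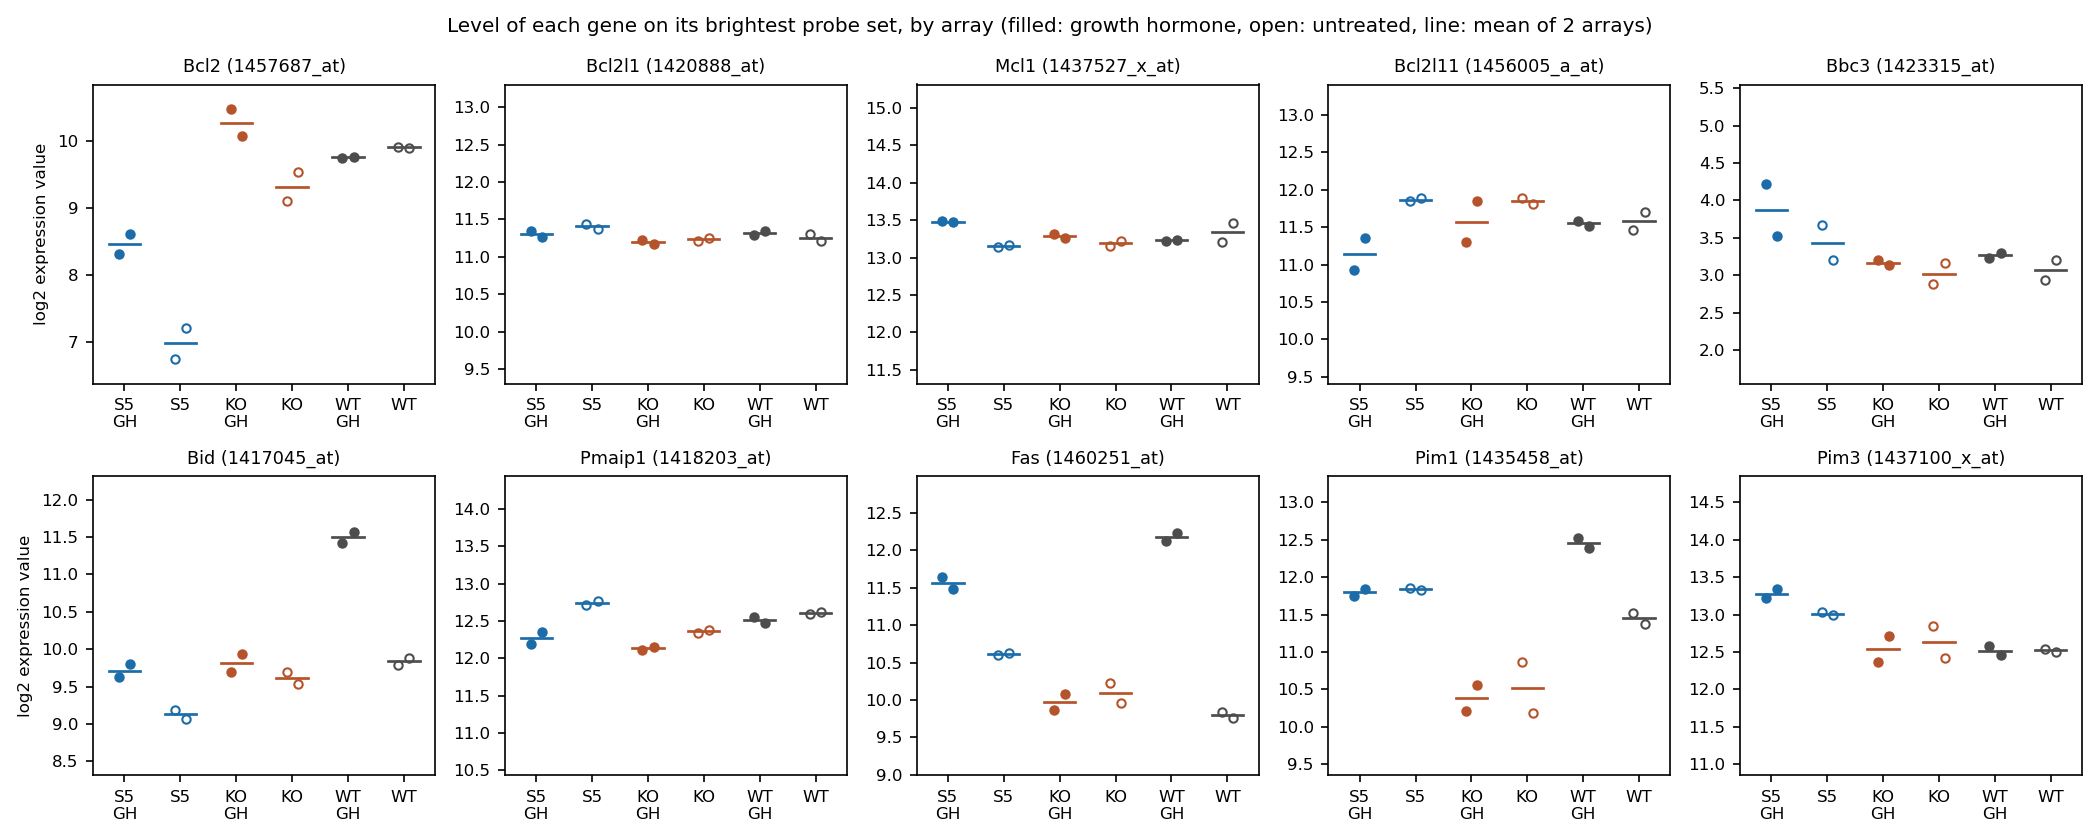
Log2 expression value (y) of each of the 10 genes on its brightest probe set by group (x), with 1 point per array, filled with GH and open without, and a line at the mean of the 2 arrays; y axes differ between panels. Fas and Bid are highest in WT MEFs with GH, Pim1 is lowest in KO MEFs, Bcl2 is lowest in untreated S5 MEFs at 6.75 and 7.21, and Bbc3 lies in the low mode on 11 of the 12 arrays.

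In S5 MEFs given growth hormone for 120 minutes, transcripts of 7 of the 10 genes were called changed on at least 1 probe set. On the brightest probe set of each gene 4 of the 10 were called, against 7.15 percent of all 18193 genes. Bcl2, Bid, Fas and Pim3 were called higher, and Pmaip1, a dimmer Bcl2l11 probe set and both dimmer Bcl2l1 probe sets above the low mode were called lower. In a fit over only the 20566 probe sets with a mean of 4 or more, as 21 of the 31 have, 12.4 percent were called. In the fit over all probe sets 4 of the 31 rose and 4 fell, which is 25.8 percent, against 6.24 percent of all probe sets (3.42 percent higher and 2.83 percent lower). The count was 4 without either untreated S5 array, when 3.15 percent (replicate 1 left out) and 3.03 percent (replicate 2) of all probe sets were called.

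Bcl2, whose protein guards the mitochondrion, stood at 8.31 and 8.61 in S5 MEFs with GH, against 6.75 and 7.21 in S5 MEFs without. It rose 2.8-fold (log2 difference 1.48, SE 0.21, adjusted p = 0.0099). The groups did not overlap, but the level with GH was still below that of every KO and WT array. Another Bcl2 probe set, 1437122_at, was in the low mode in both S5 groups. In a fit of only the S5 groups the Bcl2 call was lost (adjusted p = 0.112).

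Fas, the cell-surface death receptor, stood at 11.64 and 11.48 in S5 MEFs with GH, against 10.60 and 10.63 in S5 MEFs without. It rose 1.93-fold (SE of the log2 difference 0.11, adjusted p = 0.0039), and the groups lay apart. In a fit of only the S5 groups the adjusted p was 0.0574. Of the 14 macrophage and blood markers 11 lay in the low mode on each S5 array, Ptprc, Tyrobp and Adgre1 among them. The exceptions were Csf1r at 4.66 to 6.87, Cd14 at 4.32 to 5.69 and Cd68 at 7.70 to 7.91, and the part of such cells in this rise was not tested.

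Bid, which links caspase-8 to the mitochondrion, stood at 9.63 and 9.80 in S5 MEFs with GH, against 9.19 and 9.07 in S5 MEFs without. It rose 1.5-fold (adjusted p = 0.0232). The call was lost after centring each array on its median (adjusted p = 0.0555), in a fit of only the S5 groups (0.11), without replicate 2 of the treated S5 arrays (0.0802) and without replicate 1 (0.069) or 2 (0.128) of the untreated ones.

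Pmaip1, a BH3-only gene whose protein binds MCL1, stood at 12.19 and 12.35 in S5 MEFs with GH, against 12.72 and 12.76 in S5 MEFs without. It fell 1.39-fold (SE of the log2 difference 0.06, adjusted p = 0.00537), with no overlap. This call was lost in a fit of only the S5 groups (adjusted p = 0.116) and under no other alternative.

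Bcl2l11, which encodes the BH3-only protein BIM, was lower with GH in S5 MEFs on each of its 4 probe sets with a mean of 4 or more, with no overlap between the groups. The probe set 1456006_at stood at 6.11 and 5.63 with GH, against 7.15 and 7.21 without, and fell 2.48-fold (adjusted p = 0.0212). The brighter probe sets 1435448_at and 1456005_a_at had log2 differences of -0.76 (adjusted p = 0.0574) and -0.72 (adjusted p = 0.0904), and the dim 1435449_at, in the low mode on both S5 arrays with GH, was at least 1.42-fold lower (adjusted p = 0.0644). With probe sets of a mean below 4 left out, each of the 3 passed (adjusted p = 0.0312, 0.0478 and 0.0298). The 4 probe sets read the same arrays and are not independent of each other. The call of 1456006_at was lost in a fit of only the S5 groups (adjusted p = 0.113), without replicate 2 of the treated S5 arrays (0.0661) and without replicate 1 (0.0894) or 2 (0.107) of the untreated ones.

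Bcl2l1, which encodes BCL-XL, gave different readings on different probe sets. The brightest, 1420888_at, stood at 11.34 and 11.26 in S5 MEFs with GH, against 11.44 and 11.37 in S5 MEFs without, a log2 difference of -0.10 (95% interval -0.22 to 0.01, adjusted p = 0.352). The dimmer 1420887_a_at stood at 4.37 and 4.65 with GH, against 6.12 and 6.13 without, and fell 3.07-fold (adjusted p = 0.0251). Likewise 1426191_a_at stood at 3.80 and 3.89 with GH, against 6.25 and 6.11 without, and fell at least 4.52-fold (adjusted p = 0.0299). So a fall was read by the dim probe sets and not by the bright one. The probe table ties 1420888_at and 1420887_a_at to the same RefSeq transcript, and which exons each reads was not analysed here. Leaving out single S5 arrays ended both dim calls in 7 of 8 cases, with adjusted p up to 0.126 for 1420887_a_at and 0.134 for 1426191_a_at, and the exception was 1420887_a_at without replicate 2 of the treated arrays. With the replicate number as a block the call of 1426191_a_at was lost (adjusted p = 0.055). That of 1420887_a_at was lost when only the S5 groups were fitted (0.0576).

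Pim3, a PIM kinase gene, also differed between its probe sets. The dimmer 1451069_at stood at 7.50 and 7.58 in S5 MEFs with GH, against 6.58 and 6.80 in S5 MEFs without, and rose 1.8-fold (adjusted p = 0.00255, or 0.0813 when only the S5 groups were fitted). The brighter 1437100_x_at stood at 13.23 and 13.34 with GH, against 13.03 and 13.00 without (log2 difference 0.27, adjusted p = 0.484). Both sets of groups lay apart in the same direction. Its relative Pim1 did not pass in S5 MEFs, at 11.75 and 11.85 with GH, against 11.85 and 11.82 without (log2 difference -0.04, 95% interval -0.54 to 0.46).

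Mcl1, which encodes a short-lived anti-apoptotic protein, had log2 differences of 0.08 to 0.33 on its 6 probe sets with GH in S5 MEFs, and none was called. Its brightest probe set stood at 13.48 and 13.48 with GH, against 13.14 and 13.17 without (log2 difference 0.32, adjusted p = 0.0572). That value passed with quantile normalization (adjusted p = 0.0343), a prior variance that follows the mean (0.049), array weights (0.0208) and without either untreated WT array (0.00855 each). Bbc3, a p53 target, stood at 4.22 and 3.53 with GH, against 3.67 and 3.20 without, and lay in the low mode on 11 of the 12 arrays.

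**Figure D2:**
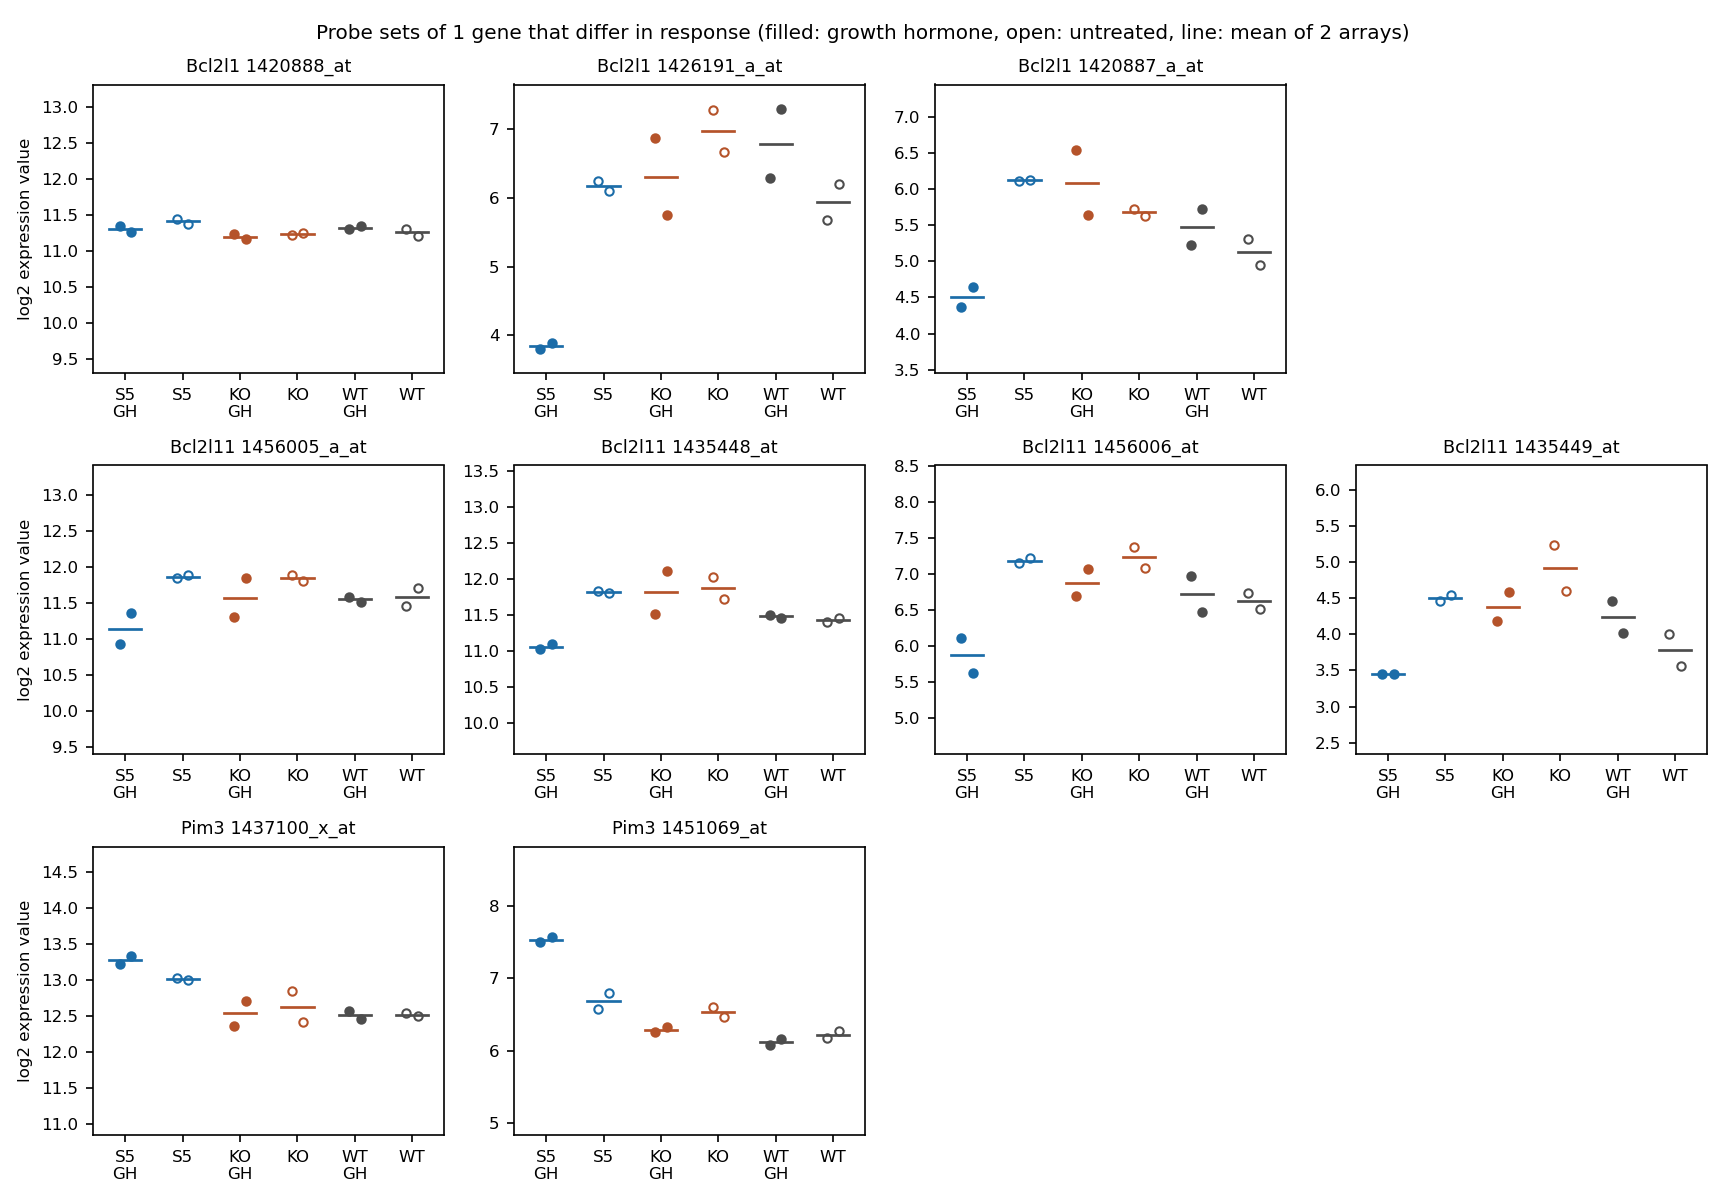
Log2 expression value (y) by group (x) on each probe set of Bcl2l1 (top row), Bcl2l11 (middle) and Pim3 (bottom) with a mean of 4 or more, with 1 point per array, filled with GH and open without, and a line at the mean of the 2 arrays; y axes differ between panels. The dim Bcl2l1 probe sets are lowest in S5 MEFs with GH (3.80 and 3.89 on 1426191_a_at), while the bright one stays between 11.17 and 11.44 on all arrays.

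In WT MEFs growth hormone raised 2 of the 10 genes, Fas and Bid, each by more than in S5 MEFs. Of the 31 probe sets 2 rose and 0 fell by limma's test, 6.45 percent against 3.06 percent of all probe sets (1.79 percent higher and 1.27 percent lower), and 4 had an unadjusted p below 0.05. In a fit over only the probe sets with a mean of 4 or more, 7.02 percent of these were called. Fas stood at 12.13 and 12.23 in WT MEFs with GH, against 9.84 and 9.76 in WT MEFs without. It rose 5.19-fold (log2 difference 2.38, SE 0.11, adjusted p = 7.38e-05). Bid stood at 11.42 and 11.57 with GH, against 9.79 and 9.88 without, and rose 3.15-fold (log2 difference 1.66, SE 0.11, adjusted p = 0.000403). Both groups lay far apart for both genes, and both calls were kept under all 20 alternatives (adjusted p up to 0.0246 for Fas and 0.0464 for Bid).

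The other Bid probe sets were dimmer. On 1448560_at the WT arrays with GH read 2.83 and 4.33, against 2.17 and 2.18 without (adjusted p = 0.138), and no fold is given, since all but 1 of these values lay in the low mode. On 1447873_x_at they read 6.28 and 5.69, against 5.38 and 5.76 (log2 difference 0.42, adjusted p = 0.701). Neither was called, and the groups overlapped on the second.

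Pim1, a STAT5 target in blood cells, stood at 12.53 and 12.40 in WT MEFs with GH, against 11.52 and 11.38 in WT MEFs without (log2 difference 1.01, SE 0.21, 95% interval 0.51 to 1.51, adjusted p = 0.0579). The groups did not overlap, and the value missed the threshold over 45037 probe sets. It passed over 1 probe set per gene (adjusted p = 0.0379), over probe sets with a mean of 4 or more (0.0261), with a prior variance that follows the mean (0.0326), with array weights (0.0195) and without either untreated KO array (0.0145 each).

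No other probe set was called in WT MEFs. Bcl2 stood at 9.75 and 9.76 with GH, against 9.91 and 9.90 without (log2 difference -0.15, 95% interval -0.65 to 0.36). Pmaip1 had a log2 difference of -0.10, the 4 Bcl2l11 probe sets above the low mode had ones of -0.03 to 0.46 and the 6 of Mcl1 ones of -0.12 to 0.29. The Bcl2l1 probe set 1426191_a_at stood at 6.28 and 7.30 with GH, against 5.67 and 6.21 without, with no overlap (log2 difference 0.85, 95% interval -0.23 to 1.93, adjusted p = 0.438). Its S5 response, read against the low mode, was of the opposite sign, and S5 minus WT was not called (adjusted p = 0.0656).

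The WT cultures' macrophage and blood markers averaged 10.41 and 10.58 with GH, against 8.87 and 10.51 without. On the same untreated WT arrays Fas stood at 9.84 and 9.76 and Bid at 9.79 and 9.88. The part of macrophage and blood cells in the WT rise of Fas, Bid and Pim1 was not tested.

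In KO MEFs 0 of the 31 probe sets passed limma's test with growth hormone, against 0.251 percent of all probe sets (0.191 percent higher and 0.06 percent lower), and 4 had an unadjusted p below 0.05. Fas stood at 9.87 and 10.08 in KO MEFs with GH, against 10.23 and 9.96 in KO MEFs without (log2 difference -0.12, 95% interval -0.38 to 0.13). Bid stood at 9.70 and 9.94, against 9.70 and 9.54, and Pim1 at 10.21 and 10.56, against 10.86 and 10.18. These 3 overlapped between the groups.

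Several probe sets lay apart in KO MEFs without being called, the brightest of Bcl2 and that of Pmaip1 among them. Bcl2 stood at 10.47 and 10.07 with GH, against 9.10 and 9.54 without (log2 difference 0.95, 95% interval 0.45 to 1.46, adjusted p = 0.21), and Pmaip1 at 12.12 and 12.15, against 12.34 and 12.39 (log2 difference -0.23, adjusted p = 0.266). For both genes the sign was that of the S5 response. The 4 Bcl2l11 probe sets with a mean of 4 or more also shared it. Their log2 differences in KO MEFs were -0.54 to -0.06, with 0 called. For S5 minus KO 0 of these 4 were called, at -0.96 to -0.45. The brightest Mcl1 probe set also lay apart with the S5 sign, at 13.31 and 13.25, against 13.15 and 13.22. The Pim3 probe set 1451069_at lay apart with the sign opposite to its S5 response. It stood at 6.25 and 6.33 with GH, against 6.61 and 6.46 without.

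**Figure D3:**
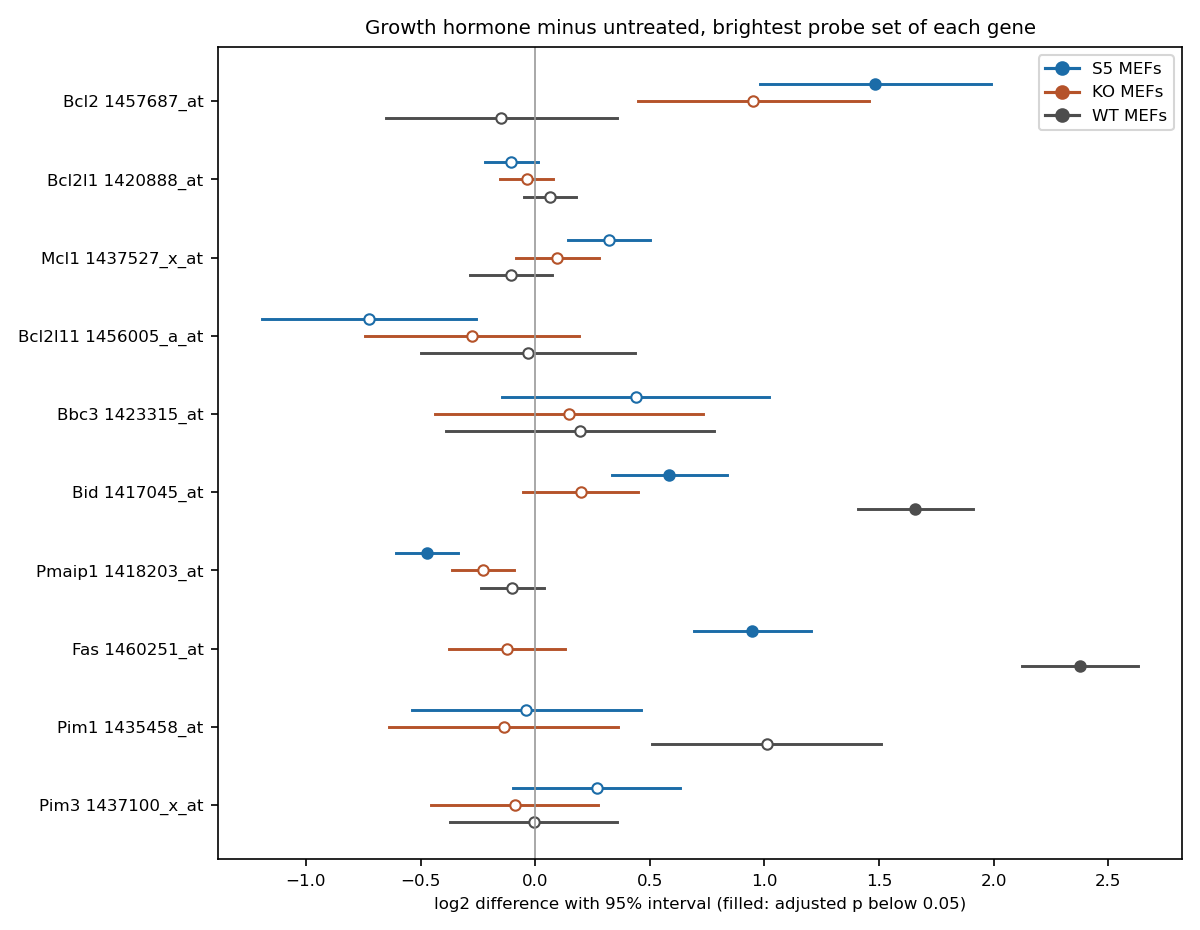
Log2 difference between GH and untreated arrays (x) with its 95% interval for the brightest probe set of each gene (y) in S5, KO and WT MEFs; filled points have an adjusted p below 0.05. Fas and Bid lie furthest to the right in WT MEFs (2.38 and 1.66), Bcl2 in S5 MEFs (1.48), and no KO point is filled.

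Tests of the difference between responses singled out Fas, Bid, Pim3 and Bcl2. For S5 minus KO 2 of the 31 probe sets were called, both higher, against 1.05 percent of all probe sets (0.699 percent higher and 0.349 percent lower). For WT minus KO 2 were called, both higher, against 0.626 percent (0.455 percent higher and 0.171 percent lower). For S5 minus WT 4 were called, 2 higher and 2 lower, against 2.12 percent (1.09 percent higher and 1.03 percent lower). The S5 minus KO count was 1 without replicate 1 of the treated S5 arrays, either untreated S5 array, replicate 1 of the untreated KO arrays or any WT array, and the S5 minus WT count was 2 without replicate 1 of the untreated S5 arrays. The S5 and WT responses were each compared with the same KO arrays. The Fas response was 0.95 in S5 MEFs, against -0.12 in KO MEFs, a difference of 1.07 (adjusted p = 0.0274). Set against the WT response of 2.38, the KO response gave a WT minus KO difference of 2.50 (SE 0.15, adjusted p = 0.000693). S5 minus WT was -1.43 (adjusted p = 0.00545), so the Fas response was smaller in S5 than in WT MEFs. The S5 minus KO call was lost in 11 of 20 alternatives, with the replicate block (adjusted p = 0.0572), in a fit of only those groups (0.117), and without single S5, KO or WT arrays (0.055 to 0.0839); it was kept without replicate 2 of the treated S5, treated KO or untreated KO arrays. The other 2 Fas calls were kept under all 20.

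The Bid response was 0.20 in KO MEFs, against 1.66 in WT MEFs, and WT minus KO was 1.46 (adjusted p = 0.0101, or 0.0533 when only those groups were fitted). It was 0.58 in S5 MEFs, and S5 minus WT was -1.07 (adjusted p = 0.0165), a call lost without replicate 1 of the untreated S5 (0.0589), replicate 2 of the treated WT (0.0539) or replicate 1 of the untreated WT arrays (0.0536). S5 minus KO was 0.39 (95% interval 0.03 to 0.74, adjusted p = 0.503).

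The Pim3 probe set 1451069_at had a response of 0.85 in S5 MEFs, against -0.24 in KO and -0.10 in WT MEFs. S5 minus KO was 1.09 (adjusted p = 0.0106) and S5 minus WT was 0.95 (adjusted p = 0.011). Both calls were lost with a prior variance that follows the mean (adjusted p = 0.114 and 0.124), and the first also in a fit of only those groups (0.0632).

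The Bcl2 response was 1.48 in S5 MEFs, against -0.15 in WT MEFs, a difference of 1.63 (adjusted p = 0.0473) that was lost in 15 of 20 alternatives (adjusted p up to 0.121), among them each of the 4 WT arrays left out, both treated S5 arrays, replicate 1 of the untreated S5 arrays and all 4 KO arrays. S5 minus KO was 0.53 (95% interval -0.18 to 1.25, adjusted p = 0.851). For Pim1 the response was -0.04 in S5, against 1.01 in WT MEFs (S5 minus WT -1.05, adjusted p = 0.179), and WT minus KO was 1.15 (adjusted p = 0.287).

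Without hormone Bcl2 and Pim1 had the largest differences between genotypes on the brightest probe set of each gene. Between untreated S5 and KO MEFs 7 of the 31 probe sets were called, 4 higher and 3 lower, which is 22.6 percent against 18.8 percent of all probe sets (10.5 percent higher and 8.37 percent lower). Between untreated S5 and WT MEFs 5 were called, 2 higher and 3 lower, 16.1 percent against 24 percent (13.9 percent higher and 10.2 percent lower). Between untreated KO and WT MEFs 4 were called, 2 higher and 2 lower, 12.9 percent against 17.2 percent (9.38 percent higher and 7.85 percent lower). The S5 minus KO share lay above that of all probe sets, and the shares for S5 minus WT and KO minus WT lay below. In fits over only the probe sets with a mean of 4 or more, more of these were called. Their shares were 40.9 percent for S5 minus KO, 51.4 percent for S5 minus WT and 39.7 percent for KO minus WT. The KO minus WT count was 1 without replicate 1 of the untreated KO arrays and 0 without replicate 2 of the untreated WT arrays, and the S5 minus KO count was 4 without replicate 2 of the untreated S5 arrays. The 3 comparisons share their arrays in pairs, and those with S5 share the untreated S5 arrays with the GH response in S5.

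Bcl2 was 5.06-fold lower in untreated S5 MEFs than in untreated KO MEFs, at 6.75 and 7.21, against 9.10 and 9.54 (log2 difference -2.34, SE 0.21, adjusted p = 0.000277). Against untreated WT MEFs, at 9.91 and 9.90, it was 7.59-fold lower (log2 difference -2.92, adjusted p = 8.62e-05). On 1437122_at, a dimmer probe set, untreated S5 MEFs read 2.54 and 2.76, against 4.51 and 4.48 in KO MEFs, at least 1.41-fold lower (adjusted p = 0.00261). All 3 of these calls were kept under each alternative in which the probe set was tested. Against untreated WT MEFs, at 4.02 and 3.17, the same probe set was called lower (adjusted p = 0.0401). The WT mean too lay below 4, so no fold is given. That call was lost in 12 of 18 alternatives (adjusted p up to 0.201), among them leaving out any S5 or KO array or replicate 1 of the untreated WT arrays. For KO against WT the brightest probe set had a log2 difference of -0.58 (adjusted p = 0.128), and 1437122_at had one of 0.90 (adjusted p = 0.0614), so the Bcl2 probe sets differed in sign.

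Pim1 was 1.9-fold lower in untreated KO MEFs than in WT MEFs, at 10.86 and 10.18, against 11.52 and 11.38 (log2 difference -0.93, SE 0.21, adjusted p = 0.0232). That call ended when replicate 1 (adjusted p = 0.111) or 2 (0.0731) of untreated WT was omitted, and when only those groups were fitted (0.172). In untreated S5 MEFs, at 11.85 and 11.82, Pim1 was 2.49-fold higher than in KO MEFs (log2 difference 1.32, adjusted p = 0.00445, or 0.0724 when only those groups were fitted). S5 minus WT was 0.39 (95% interval -0.11 to 0.89, adjusted p = 0.265). In order of level, Pim1 ran from WT with GH, through S5 without and with GH and untreated WT, to KO without and with GH. The S5 pair overlapped, as did the KO pair, and the other neighbours did not.

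Fas was 1.43-fold higher in untreated S5 MEFs than in untreated KO MEFs, at 10.60 and 10.63, against 10.23 and 9.96 (adjusted p = 0.014). It did not pass when replicate 1 (0.0609) or 2 (0.0748) of untreated S5 or replicate 2 of untreated KO (0.0648) was omitted, nor in a fit of only those groups (0.0791). Against untreated WT MEFs it was 1.76-fold higher (adjusted p = 0.0014). KO minus WT was 0.30 (adjusted p = 0.124).

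Bid was lower in untreated S5 MEFs than in untreated KO MEFs, at 9.19 and 9.07, against 9.70 and 9.54, by 1.4-fold (adjusted p = 0.0174), a call lost without replicate 2 of the untreated S5 (0.104) or replicate 1 of the untreated KO arrays (0.0976) and in a fit of only those groups (0.0528). Against untreated WT MEFs it was 1.63-fold lower (adjusted p = 0.00258). The dimmer Bid probe set 1447873_x_at had a log2 difference of -1.41 for S5 minus WT (adjusted p = 0.106). Pmaip1 was 1.3-fold higher in untreated S5 than in untreated KO MEFs, at 12.72 and 12.76, against 12.34 and 12.39 (adjusted p = 0.00347), a call kept under all 20 alternatives. It was 1.19-fold lower in untreated KO than in WT MEFs, at 12.59 and 12.63 in WT (adjusted p = 0.0256). That small difference was lost in 8 of 20 alternatives, without each of the 4 arrays compared among them (adjusted p 0.0634 to 0.131).

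Among the other genes, the dim Bcl2l11 probe set 1435449_at was 2.21-fold higher in untreated KO than in WT MEFs, at 4.92 ± 0.44, against 3.78 ± 0.31 (SD, n = 2 each, adjusted p = 0.0228 by limma). It was lost without replicate 1 of the untreated KO (0.118) or replicate 2 of the untreated WT arrays (0.131) and in a fit of only those groups (0.141). The untreated WT mean of 1435449_at lay below 4, with replicate 2 in the low mode at 3.56, where differences are compressed. The brightest Bcl2l11 probe set had a log2 difference of 0.27 for untreated KO minus WT (adjusted p = 0.557). The Pim3 probe set 1451069_at was 1.39-fold higher in untreated S5 than in WT MEFs (adjusted p = 0.0061), and 1.24-fold higher in KO than in WT MEFs (adjusted p = 0.0451), the second a call lost in 12 of 19 alternatives (adjusted p up to 0.336). Among these were leaving out any treated array, any WT array or replicate 1 of the untreated KO arrays. The S5 minus WT call was lost with a prior variance that follows the mean (0.0934) and in a fit of only those groups (0.0701). Bcl2l1 on 1420888_at was 1.13-fold higher in untreated S5 than in KO MEFs (adjusted p = 0.0485), a call lost in 17 of 20 alternatives (adjusted p up to 0.258) that was kept over 1 probe set per gene and without either untreated WT array. Mcl1 had log2 differences of -0.24 to 0.22 in these 3 comparisons, none of them called.

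**Figure D4:**
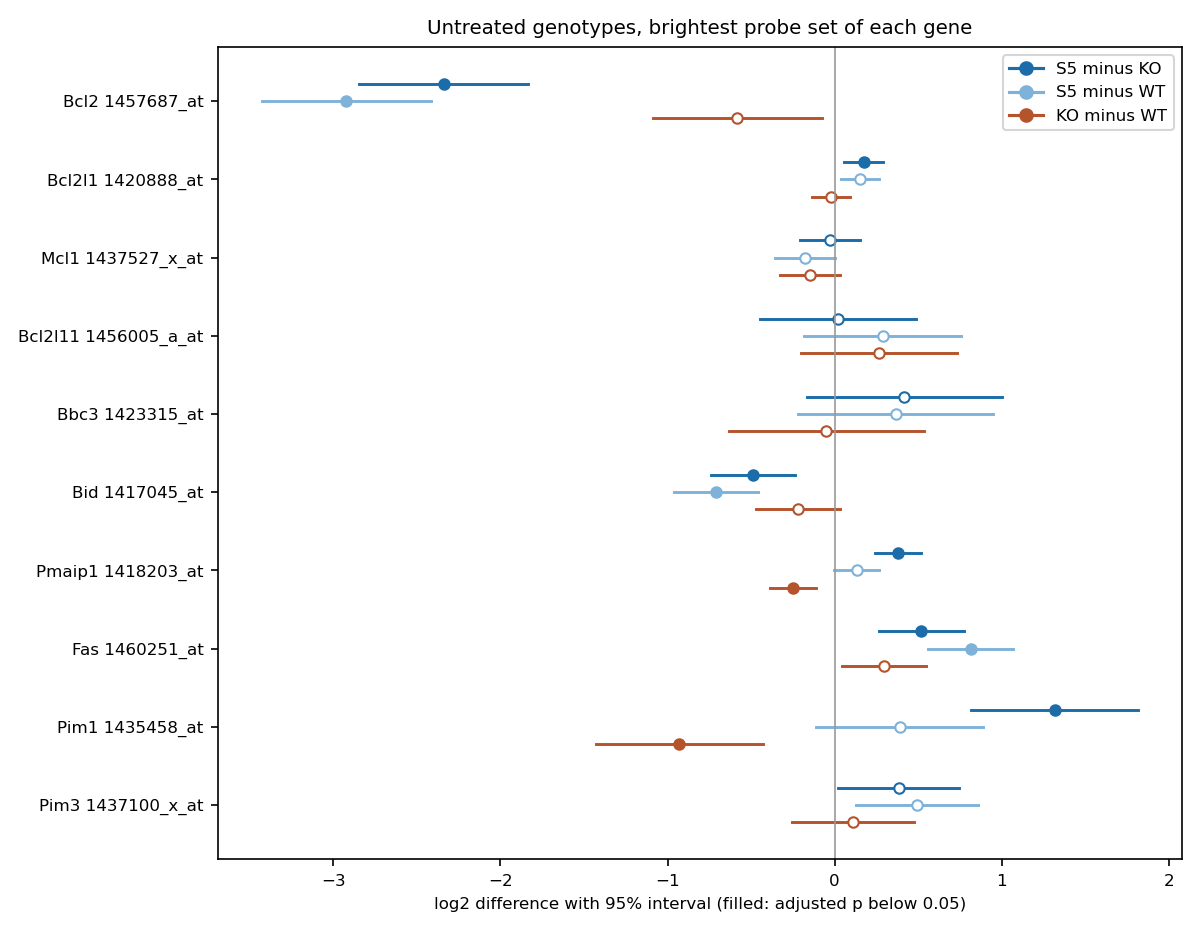
Log2 difference between untreated genotypes (x) with its 95% interval for the brightest probe set of each gene (y), for S5 minus KO, S5 minus WT and KO minus WT; filled points have an adjusted p below 0.05. Bcl2 lies at -2.34 and -2.92 in the S5 comparisons, and Pim1 at 1.32 for S5 minus KO and -0.93 for KO minus WT.

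Other genes of the pathway were taken from lists by function, with 1 probe set per gene. In the list of caspases, apoptosome genes and their inhibitors, GH changed 3 of 11 measured genes in S5 MEFs, 1 up and 2 down, 3 in WT MEFs, 2 up and 1 down, and 0 in KO MEFs. In S5 and in WT MEFs this was 27.3 percent of the list, against 7.15 percent of all 18193 genes in S5, 4.5 percent in WT and 0.286 percent in KO MEFs. The list's median log2 difference was -0.01 in S5, 0.01 in KO and 0.03 in WT MEFs, against -0.02, -0.02 and -0.04 over all 18193 genes. Birc3, which encodes an inhibitor of apoptosis protein, rose 2.69-fold in S5 MEFs (adjusted p = 0.00655) and 5.62-fold in WT MEFs, where it stood at 11.60 and 11.81 with GH, against 9.11 and 9.32 without (adjusted p = 0.000847). Its WT minus KO difference was 1.97 (adjusted p = 0.0282). Birc2, its neighbour and relative, rose 2.08-fold in WT MEFs (adjusted p = 0.00685). The executioner caspase gene Casp6 fell in S5 MEFs by 0.67 on the log2 scale (adjusted p = 0.00893) and in WT MEFs by 0.55 (adjusted p = 0.0268), and the initiator gene Casp2 fell in S5 MEFs by 0.66 (adjusted p = 0.0157).

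Among 5 other BH3-only and BH3-like genes measured, Bmf responded in opposite directions. Bmf, whose protein binds BCL2 relatives, stood at 6.85 and 6.49 in S5 MEFs with GH, against 5.76 and 5.86 without, and rose 1.81-fold (adjusted p = 0.00504). In WT MEFs it averaged 2.96 ± 0.04 with GH and 4.43 ± 0.01 without (SD, n = 2 each), and fell at least 1.35-fold (adjusted p = 0.000681). S5 minus WT was 2.32 on the values as deposited (adjusted p = 0.000471). In S5 and in WT MEFs 1 of the 5 was called, 20 percent against the shares of all genes above. The list's median log2 difference was 0.07 in S5, -0.02 in KO and 0.00 in WT MEFs.

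GH changed 0 of 11 death receptor, ligand and adaptor genes in each genotype by limma's test, with medians of 0.00 in S5, 0.00 in KO and 0.03 in WT MEFs. It also changed 0 of 2 measured pore-forming effectors, Bax not among them, and 0 of 2 measured anti-apoptotic relatives. Of these relatives 1 lay in the low mode on all 12 arrays, as did 2 of the 11 death receptor, ligand and adaptor genes. Pim2, the third PIM kinase gene, had log2 differences of 0.83 in S5, 0.37 in KO and 0.87 in WT MEFs, none called. In untreated S5 against KO MEFs 3 of the 11 death receptor genes were higher and 0 lower, 27.3 percent against 25.3 percent of all genes, which is near the background. They were the TRAIL receptor gene Tnfrsf10b, 2.02-fold (adjusted p = 0.000165), the FAS-binding Daxx, 1.63-fold (adjusted p = 0.00447), and Faf1, 1.44-fold (adjusted p = 0.0343). The effector gene Bok was 2.77-fold lower in untreated KO than in WT MEFs (adjusted p = 0.00301) and 2.15-fold higher in S5 than in KO MEFs (adjusted p = 0.00929). Among the 11 caspase, apoptosome and inhibitor genes 2 were higher and 2 lower in untreated S5 than in KO MEFs, 36.4 percent against 25.3 percent of all genes, and 1 was higher and 3 lower in KO than in WT MEFs, 36.4 percent against 24.7 percent. Birc3 was 3.44-fold lower in untreated S5 MEFs, at 7.40 and 7.20, than in KO MEFs, at 9.02 and 9.14 (adjusted p = 0.000527). Birc5, which encodes the mitotic protein survivin, was 5.3-fold lower in untreated KO than in WT MEFs (adjusted p = 6.71e-05) and 2.05-fold higher in S5 than in KO MEFs (adjusted p = 0.00242).

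The genes whose profile over the 12 arrays was most like that of a member were taken for the 4 genes whose group means spanned at least 1 log2 unit, among 5684 other genes with such a span. For Bid they were Nfkbie, which encodes an NF-kB inhibitor (Pearson r = 0.98), the cytokine gene Lif (r = 0.965) and Rsl1 (r = 0.964). For Fas they were Mbd1, which encodes a methyl-CpG binding protein (r = 0.972), Zbtb7c (r = 0.965) and the retinoic acid hydroxylase gene Cyp26b1 (r = 0.963). For Pim1 they were Apobec3 (r = 0.974), Nmi (r = 0.965) and the hypoxia factor gene Epas1 (r = 0.958), and for Bcl2 Nav3 (r = 0.968), Tmcc3 (r = 0.962) and Bach2 (r = 0.958). The 12 arrays fall into 6 pairs of duplicates, and these values are a description with no test.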

How the data were processed

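Transcript levels were deposited by the authors as log2 expression values of 45101 Affymetrix probe sets on each of the 12 arrays. GCOS and RMA are named in the submitters' processing notes with no settings, and the log2 base was read from the values, which ran from 0.99 to 15.95. The 64 control probe sets were left out. Probe sets were named from the platform annotation, with symbols updated by Entrez ID through RefSeq's genes (GRCm38.p6): 34945 had 1 gene (18193 genes), 932 several and 9160 none.

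Limma 3.58.1 (R 4.3.3) was fitted to all 45037 probe sets with 6 group means (6 residual and 1.11 prior degrees of freedom), with two-sided p-values and Benjamini-Hochberg adjustment over all probe sets in each of 9 comparisons. The fit was tested on simulated data. A list gene is represented by its probe set with the highest mean. Precision is limited by having 2 arrays a group. The 10 genes, the lists, the bound of 4 and the tests were chosen with earlier results of these data known. Named outside the 10 genes are up to 4 called genes per list and comparison, Stat5a, Socs2 and Cish, and the 3 genes most alike per member; cell type markers are named as examples, and Pim2 as the only gene of its list. Alternatives were 1 probe set per gene, a mean of 4 or more, a trended prior, quantile normalization, median centring, a replicate block, array weights, fitting only those groups that are compared, and leaving out each array. Some listed genes were not analysed here.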

Additional observations from a re-analysis of the deposited data

Results flagged for a closer look

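These results were singled out because the response to growth hormone differed between genotypes by limma's test of the difference itself. The Fas response in S5 minus that in KO MEFs was 1.07, that in WT minus that in KO MEFs 2.50 and that in S5 minus that in WT MEFs -1.43. The Bid response in WT minus that in KO MEFs was 1.46, and in S5 minus that in WT MEFs -1.07. The Pim3 response on probe set 1451069_at was 1.09 for S5 minus KO and 0.95 for S5 minus WT MEFs. The Bcl2 response in S5 minus that in WT MEFs was 1.63. This Bcl2 call was lost in 15 of 20 alternatives, and the Fas call for S5 minus KO in 11 of 20. Groups of 2 arrays were too small for a test of single arrays that stand apart.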

How the results depend on the processing

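Of 72 differences on member probe sets with a mean of 4 or more and an unadjusted p below 0.05, none changed direction under any alternative, and 32 were called. A fit of only the groups compared, with fewer degrees of freedom, lost 20 of these calls and gained 8. Array weights lost 3 and gained 16.

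The counts of called member probe sets changed by more than 1.5 times as follows. For the GH effect in S5 MEFs the count of 8 became 4 over 1 probe set per gene, which tests 10 member probe sets in place of 31, 13 with array weights and 3 in a fit of only those groups. For S5 minus KO responses the count of 2 became 1 over 1 probe set per gene, 1 with the trended prior, 1 with the replicate block and 0 in a fit of only those groups. For WT minus KO responses the 2 became 1 in a fit of only those groups, and for S5 minus WT responses the 4 became 9 with array weights. For untreated KO minus WT the 4 became 2 over 1 probe set per gene, 2 with array weights and 0 in a fit of only those groups. For untreated S5 minus KO the 7 became 4, and for untreated S5 minus WT the 5 became 9, in such fits. For untreated S5 minus WT it was 8 over probe sets with a mean of 4 or more and 12 with array weights. The cause was not tested.

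Leaving out single arrays gave 4 to 10 calls for the GH effect in S5, 2 to 3 in WT and 0 in KO MEFs, 1 to 3 for S5 minus KO, 2 to 3 for WT minus KO and 2 to 6 for S5 minus WT responses, and 0 to 4 for untreated KO minus WT, 4 to 7 for S5 minus KO and 4 to 7 for S5 minus WT. Same-numbered arrays share only a number: deviations of replicate 1 correlated between groups at -0.38 to 0.18 over 20566 probe sets. The replicate block lost 4 of the 32 calls and gained 0.
Over all probe sets the GH effect in S5 MEFs was called for 2812 as reported and for 1433 over 1 probe set per gene, 5207 with array weights and 503 in a fit of only those groups. The share of higher calls was 54.7 percent as reported and 40.9 percent after median centring, which shifted the median of all probe sets to -0.11. In WT MEFs 1379 were called, and 160 in a fit of only those groups. In KO MEFs 113 were called, and 56 over 1 probe set per gene, 60 with the replicate block, 25 with array weights and 0 in a fit of only those groups. Leaving out single arrays gave 1365 to 3258 in S5, 818 to 1472 in WT and 42 to 311 in KO MEFs, 340 to 1275 for S5 minus KO, 189 to 496 for WT minus KO and 679 to 1658 for S5 minus WT responses, where 472, 282 and 956 were called as reported. The lowest counts came without replicate 2 of the untreated S5 arrays in S5, without replicate 2 of the treated WT arrays in WT and without either untreated S5 array in KO MEFs, and the highest in KO MEFs without replicate 1 of the treated KO arrays.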
